A study of Elaeis guineensis with 15 samples.

Results

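The base of oil palm (Elaeis guineensis) fruit, where the abscission zone (AZ) lies, was compared between ripe and immature fruit under ethylene. AZ150 denotes tissue taken at 150 days after pollination (DAP) after 3, 6 and 9 h of 10 μl/l ethylene, and AZ30 denotes the same tissue taken at 30 DAP after the same hours of the same treatment. These 6 of the 15 libraries of the study were chosen by age and treatment and paired by time, so that 3 libraries stand on each side. All 6 came from clone C, a tenera clone, so that 1 genotype is compared, and each was made from tissue pieces of the fruit base pooled over many fruit, with the primary and adjacent AZs together. AZ tissue of both ages before treatment (0 h), the pedicel of ripe fruit at 150 DAP (P150) under the same treatment, and untreated field AZ tissue at 30, 120 and 160 DAP were used beside them. The comparison asks which transcripts separate a ripe AZ, whose cells part under ethylene, from an immature AZ, which is exposed to ethylene but does not shed.

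An AZ is a set of cell layers at the base of an organ where neighbouring cells can come apart. Cell separation needs enzymes that loosen the pectin of the middle lamella, above all polygalacturonases, which cut the pectin backbone, and it is promoted by ethylene and held back by auxin in many species. Ethylene is made by the plant itself from S-adenosylmethionine through ACC synthase and ACC oxidase, is sensed by receptors of the ETR1 family, and acts through EIN3 and the ethylene response factors. In the oil palm the AZ sits between the pedicel and the oil-bearing mesocarp.

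The values are 454 pyrosequencing reads of a library in contigs, the stretches assembled from the reads of all libraries, given here as reads per 100000 reads of that library. The AZ150 libraries held 56408, 84788 and 127153 reads at 3, 6 and 9 h, and the AZ30 libraries 108374, 78309 and 214449, so that 1 read stood for 0.466 to 1.77 reads per 100000. Each condition has 1 library. In the fit over all contigs the 3 times served as repeats, with time as a term, so its error includes real differences between times in how the ages differ. No untreated AZ was sequenced at 3, 6 or 9 h, and ethylene and the hours passed cannot be told apart. In such tissue, fewer cells of a type and less RNA per cell cannot be told apart either.

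The contigs of 7 genes on which the results turn most can be recognized by the primers that the study designed for them, printed here 5′ to 3′, sense before antisense. They are shown because several of these genes belong to families with close members. The files analysed here hold no contig sequence.
EgPG4 sense: acctacggaaacaagcc
EgPG4 antisense: aatcctacatcacccatttca
EgPGAZ1 sense: gtgatcccgttgccttgc
EgPGAZ1 antisense: gatgagaagagggcccaaa
EgPGAZ2 sense: cccacaaaaattgcttctgc
EgPGAZ2 antisense: gatggatatgcagccatgc
EgPMEI sense: tcatgcagttcaccagcaac
EgPMEI antisense: caaacctttgctctttaaccaa
EgOSM34 sense: ggatgcgtacagttacccca
EgOSM34 antisense: ctcagaggcctacagagca
EgCIB1 sense: ttgggatattgctggcttg
EgCIB1 antisense: atcgggacacataacctcca
EgIAA27 sense: aggaggctaaggatcatgaagg
EgIAA27 antisense: gcttttggttttgagatggtc

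Ripe and immature AZ differed in 431 of the 7836 contigs tested under ethylene (5.50%, edgeR quasi-likelihood test, adjusted p under 0.05). Of these, 212 were higher in AZ150 (2.71%) and 219 were lower (2.79%). The higher contigs had a median fitted log2 ratio of 2.61, or 6.09-fold, and the fitted ratio of 74 of them passed 8-fold. The lower contigs had a median of -2.93, or 7.60-fold lower, and the fitted ratio of 108 passed 8-fold. For 35 lower contigs without a read in AZ150, that ratio depends on the small count the fit adds. Against a floor of 3 reads these 35 were at least 7.14-fold lower in the median. With zero sides set at that floor, the medians were 2.61 and -2.78. Together the 212 higher contigs took up 8286, 10385 and 14693 reads per 100000 in AZ150 at 3, 6 and 9 h, against 1311, 1098 and 3774 in AZ30. The 219 lower contigs took up 1246, 1049 and 954 reads per 100000 in AZ150, against 6199.8, 7569 and 6244 in AZ30. All 3 AZ150 libraries lay above all 3 AZ30 libraries for 169 of the 212 higher contigs. They lay below them for 168 of the 219 lower ones. Over all contigs tested, 718 lay above (9.16%) and 723 below (9.23%). The called contigs were chosen from these same libraries, so their separation follows in large part from the call and is no further evidence. The number called fell to 209 without the 3 h libraries, 204 without those of 6 h and 264 without those of 9 h, and to 125 (59 higher, 66 lower) without the time term.

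**Figure D1:**
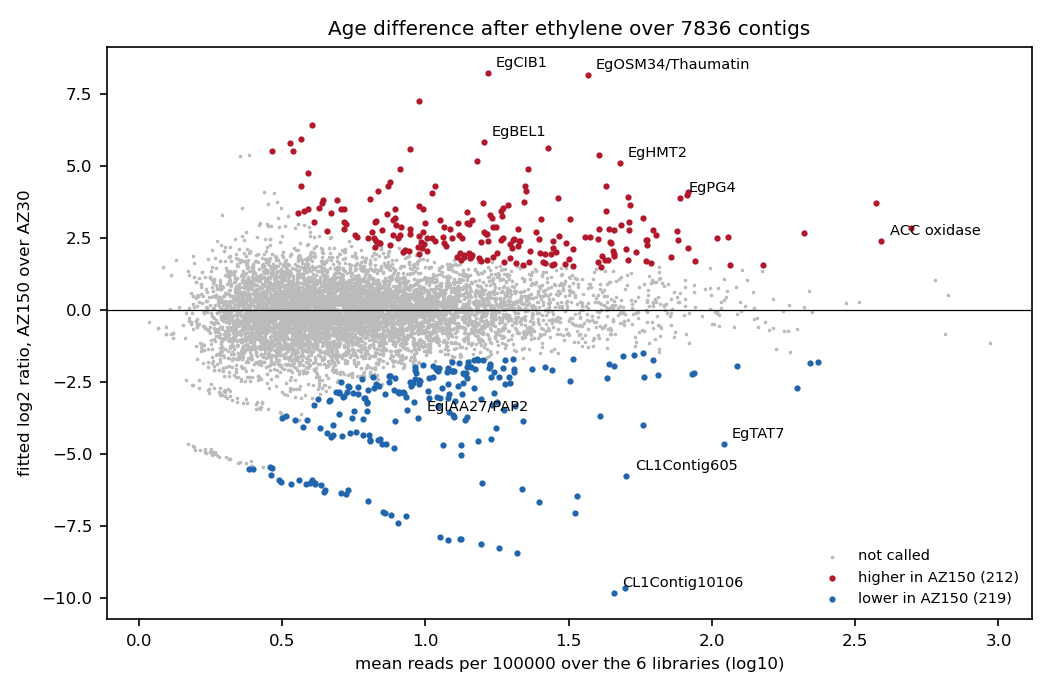
Fitted log2 ratio of AZ150 over AZ30 (vertical axis) against mean reads per 100000 over the 6 libraries (horizontal axis, log10) for the 7836 contigs tested. Points in red are the 212 contigs called higher in AZ150 and points in blue the 219 called lower; the streaks at the lower left are contigs with few or no reads in AZ150, whose fitted ratio depends on the small count the fit adds.

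Names came from the study's own annotation, which covers contigs that it had selected for a response in AZ150, partly against AZ30 and P150 in these same libraries. Annotated contigs therefore hold more higher calls than the rest by choice: 159 of the 937 tested were higher (17.0%) and 16 were lower (1.71%), and counts of named gene groups are no independent evidence of a direction. Among the 492 annotated contigs that had not been selected against AZ30, 57 were higher (11.6%) and 3 were lower (0.610%). The median log2 ratio was 0.69 over the annotated contigs and -0.076 over all contigs tested, and the groups below are read beside these values.

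**Figure D2:**
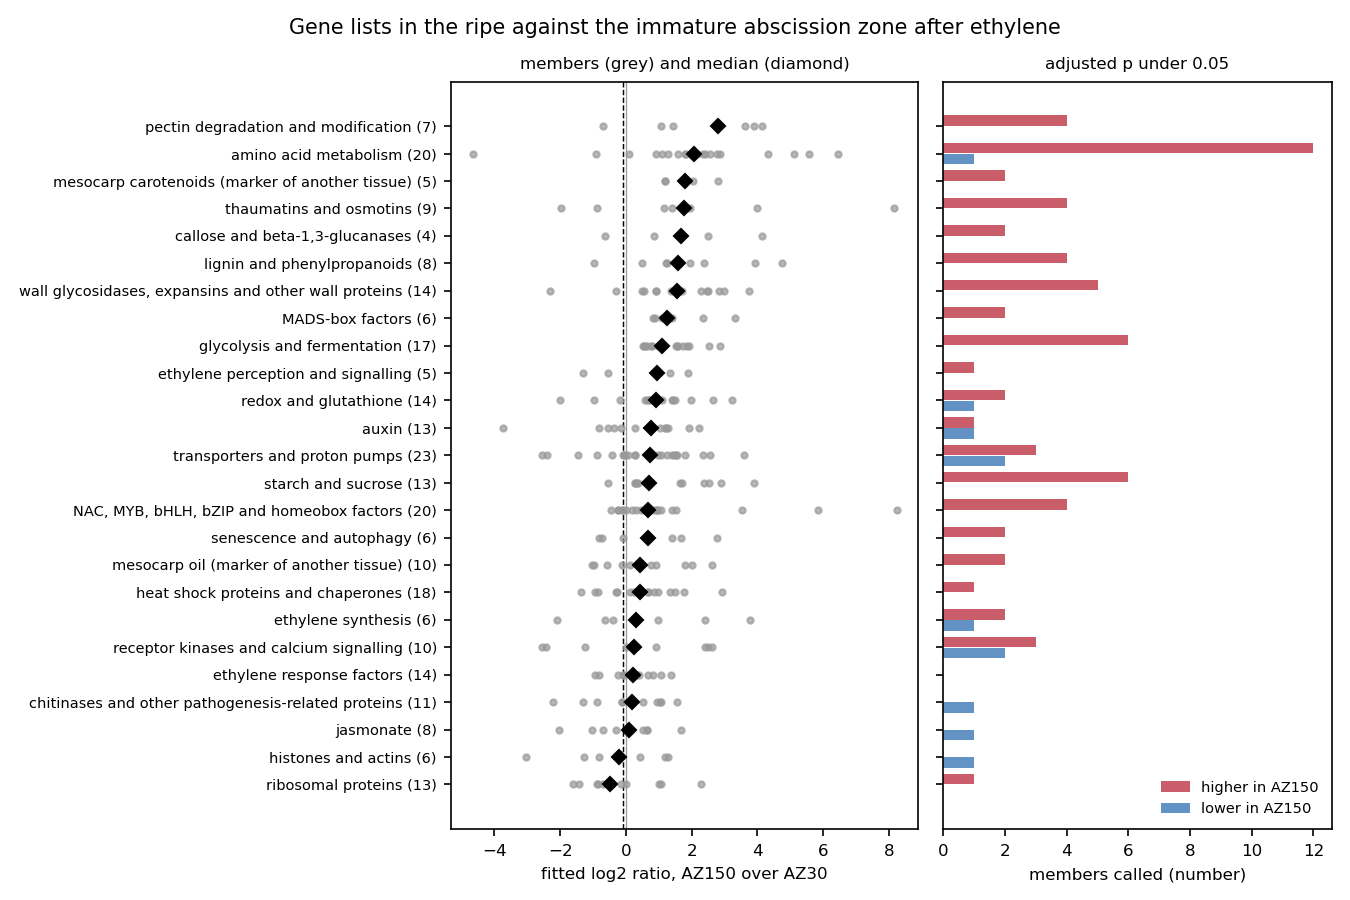
Annotated gene groups ordered by their median. The left panel gives the fitted log2 ratio of AZ150 over AZ30 for each member tested (grey points) and the median of the group (diamond), with the number of members tested in brackets and the median of all contigs as a dashed line at -0.076; the right panel gives how many members were called higher or lower. Pectin enzymes had the highest median (2.80) and ribosomal proteins the lowest (-0.48).

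Pectin enzymes had the highest median of the gene groups in the fit over all times. Of 7 members, 4 were higher in AZ150 and none was lower, with a median log2 ratio of 2.80. All 4 were among the contigs that the study had selected against AZ30 and P150 in these libraries. Without the time term the pectin median was 1.88, below that of amino acid metabolism (1.93). At single times it was the highest at 3 h (3.97) and 6 h (3.79). At 9 h it was 1.10, below several groups, such as amino acid metabolism (1.76) and other wall proteins (1.65). The summed level of the pectin enzymes was 229, 231 and 761 reads per 100000 in AZ150 at 3, 6 and 9 h, against 72.9, 49.8 and 217 in AZ30. EgPG4 (CL1Contig10800), a polygalacturonase, had 39.0, 66.0 and 312 reads per 100000 in AZ150 and 0, 1.28 and 46.6 in AZ30. The exact 95% counting interval at 9 h was 282 to 344 in AZ150 and 37.9 to 56.7 in AZ30, while that of the 0 reads of AZ30 at 3 h reached 3.40. The immature AZ thus held EgPG4 reads almost only at 9 h, and that library lay above AZ150 at 3 h. The fitted log2 ratio was 3.89 ± 0.60 (SE, edgeR adjusted p = 2.1e-08), and the adjusted p was 0.25 without the time term, the highest of the 12 alternatives (lowest 1.7e-08). EgPGAZ1 (CL1Contig6920), another polygalacturonase, had 49.6, 28.3 and 206 reads per 100000 in AZ150 and 2.77, 0 and 25.2 in AZ30. All of its AZ150 libraries lay above all AZ30 libraries (log2 ratio 3.64 ± 0.58 SE, edgeR adjusted p = 1.1e-07, from 7.2e-08 to 0.13 over the alternatives, the highest without the time term).

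EgPGAZ2 (CL1Contig9409), the third polygalacturonase, was sparse, with 7.09, 0 and 32.2 reads per 100000 in AZ150 and 0, 0 and 1.87 in AZ30, in all 45 against 4 reads. Its log2 ratio was 4.14 ± 0.94 (SE, edgeR adjusted p = 0.00059) and rested on 9 h, since the adjusted p was 0.84 without that time and from 0.00023 to 0.84 over the alternatives. EgPMEI (CL1Contig10995), which the study's tables annotate both as a pectinesterase and as a pectinesterase inhibitor, had 72.7, 86.1 and 141 reads per 100000 in AZ150 and 3.69, 3.83 and 65.7 in AZ30. The ratio of the ages was thus 19.7 at 3 h, 22.5 at 6 h and 2.14 at 9 h, when AZ30 had come close to the level of AZ150 at 3 h (log2 ratio 2.80 ± 0.55 SE, edgeR adjusted p = 3.7e-05, at most 0.39, without the time term). The other 3 pectin contigs did not pass the test. CL1Contig8622, a polygalacturonase-like protein, had a log2 ratio of 1.42 ± 0.56 (SE), CL173Contig1, a glycoside hydrolase with a pectin lyase-like fold, 1.07 ± 1.04, and CL1Contig2129, annotated as a pectin acetylesterase, -0.70 ± 0.47.

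**Figure D3:**
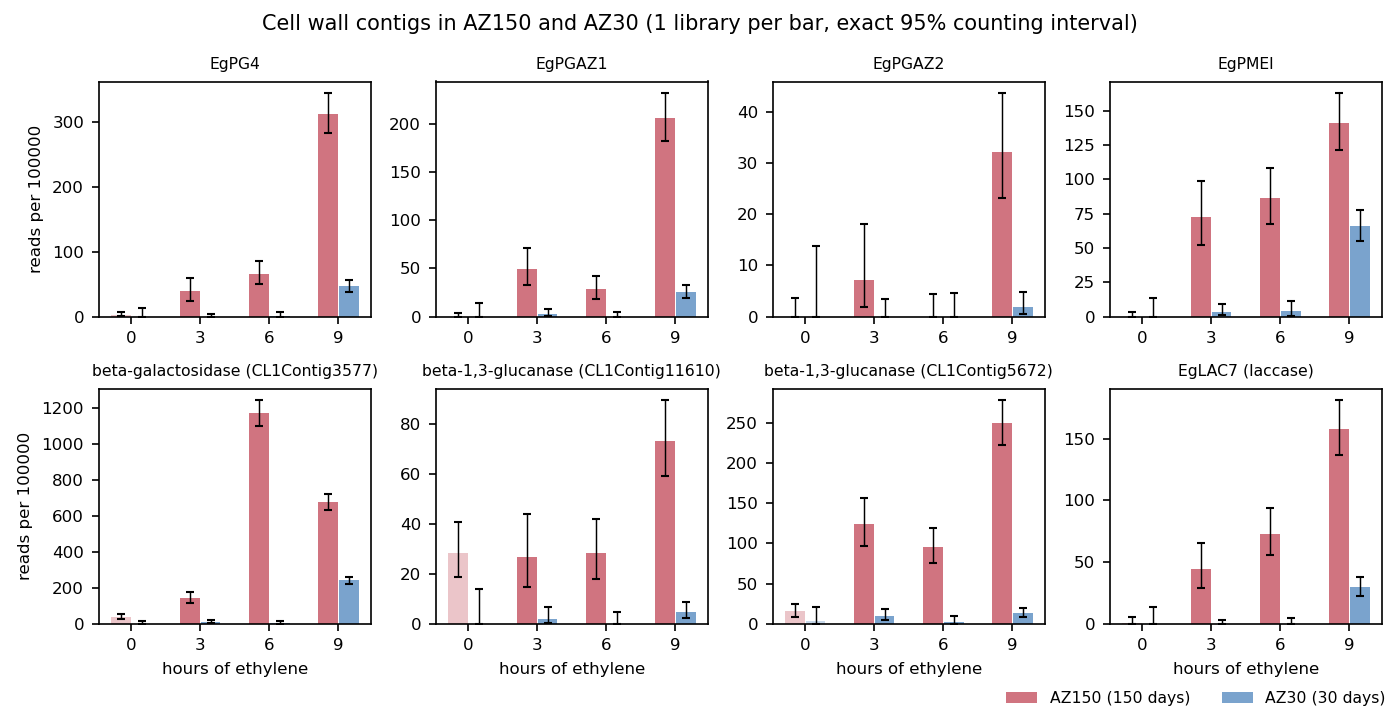
Reads per 100000 of 8 cell wall contigs in AZ150 (red) and AZ30 (blue) at 0, 3, 6 and 9 h of ethylene, with 1 library a bar and exact 95% counting intervals; the paler bars at 0 h are untreated tissue. The AZ150 bar is the taller at every treated time in 7 panels and at 3 and 9 h for EgPGAZ2, and AZ30 reads of EgPG4, EgPMEI, the beta-galactosidase and EgLAC7 appear mainly at 9 h.

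Among 14 glycosidases, expansins and other wall proteins, 5 were higher in AZ150 and none was lower (median log2 ratio 1.55). A beta-galactosidase (CL1Contig3577), which trims galactose side chains of wall polymers, was among the most abundant contigs, with 144, 1170.0 and 675 reads per 100000 in AZ150 and 12.0, 6.38 and 242 in AZ30. AZ30 at 9 h lay above AZ150 at 3 h, and the ages were 183-fold apart at 6 h and 2.79-fold apart at 9 h (log2 ratio 3.73 ± 0.67 SE, edgeR adjusted p = 3.1e-06). The adjusted p was 0.099 without the 6 h libraries and 0.31 without the time term, the highest of the alternatives (lowest 1.7e-17). An expansin-like gene close to Arabidopsis EXLB2, of the family that loosens walls, was read as a pair of contigs of 1 locus. CL1Contig8178 had 65.6, 105 and 308 reads per 100000 in AZ150 and 1.85, 16.6 and 128 in AZ30 (log2 ratio 2.49 ± 0.54 SE, edgeR adjusted p = 0.0003, and 0.16 without 3 h, from 4.7e-05 to 0.56 over the alternatives), and CL1Contig7453 had a log2 ratio of 2.83 ± 0.66. EgBXL2 (CL1Contig2306), a beta-xylosidase, had 3.55, 22.4 and 74.7 reads per 100000 in AZ150 and 0, 1.28 and 20.5 in AZ30, and its call (edgeR adjusted p = 0.0034, at most 0.43 over the alternatives) was lost without 6 h (0.11) or 9 h (0.056). Of the 5 calls in this group, 1 held with each time left out in turn, and none held without the time term.

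Beta-1,3-glucanases degrade callose, the polymer that closes plasmodesmata. CL1Contig11610, close to Arabidopsis BG1, had 26.6, 28.3 and 73.1 reads per 100000 in AZ150 and 1.85, 0 and 4.66 in AZ30 (log2 ratio 4.15 ± 0.64 SE, edgeR adjusted p = 2.0e-08, at most 0.013 over 12 alternatives). It was nearly absent from P150, with 0.499, 0 and 2.40 reads per 100000. CL1Contig5672, a second glucanase, had 124, 95.5 and 249 reads per 100000 in AZ150 and 10.2, 2.55 and 13.5 in AZ30 (log2 ratio 4.11 ± 0.57 SE, edgeR adjusted p = 1.9e-10, at most 0.010), and P150 had 437, 292 and 717 (edgeR adjusted p = 0.20 for AZ150 against P150). Both glucanases thus had higher levels in AZ150 than in AZ30 at every time, whereas P150 was low in the first and not in the other. A further member, CL1Contig11062, was called at log2 2.50 ± 0.77 (SE, edgeR adjusted p = 0.027), and the call was lost without 3 h (0.077), 6 h (0.12) or 9 h (0.63, the highest of the alternatives, lowest 0.018). Of the 4 glucanase and callose contigs of the list tested, which does not hold CL1Contig5672, 2 were higher and none was lower. A fitted ratio above 0 was found in 3 of the 4. The summed level of all 6 contigs of the list was 101, 99.1 and 369 reads per 100000 in AZ150, against 141, 76.6 and 228 in AZ30. AZ30 thus lay above AZ150 at 3 h, and also at 0 h (158 against 62.4).

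Lignin genes showed 4 higher and no lower call among 8 tested (median log2 ratio 1.60). EgLAC7 (CL1Contig10326), a laccase of the family that couples lignin precursors, had 44.3, 73.1 and 158 reads per 100000 in AZ150 and 0, 0 and 29.8 in AZ30. Its log2 ratio was 3.94 ± 0.59 (SE, edgeR adjusted p = 7.5e-09, from 5.4e-09 to 0.19 over the alternatives, the highest without the time term), and P150 had 1.50, 0.661 and 26.4 reads per 100000. EgC4H (CL1Contig9188), the cinnamate hydroxylase early in the phenylpropanoid pathway, had 46.1, 31.8 and 44.8 reads per 100000 in AZ150 and 12.9, 0 and 21.9 in AZ30 (log2 ratio 1.95 ± 0.53 SE, edgeR adjusted p = 0.0068, and 0.068 without 3 h, 0.30 without 6 h and at most 0.38). The calls of EgREF1 (CL1Contig23328), an aldehyde dehydrogenase of phenolic acids, and of a cinnamoyl-CoA reductase-like contig (CL1Contig2639) (edgeR adjusted p of 0.0042 and 0.0025) were lost without 6 h for the dehydrogenase (0.23, the highest of its alternatives, lowest 0.0031) and without 9 h for the reductase-like contig (0.67, lowest 0.0024). That contig rested on 24 reads in AZ150 and 1 read in AZ30, a ratio of 35.9 with a counting interval of 5.85 to 1475.

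Among 6 genes of ethylene synthesis, 2 were higher in AZ150 and 1 was lower. Their summed level was 636, 785 and 785 reads per 100000 in AZ150, against 339.6, 88.1 and 370.3 in AZ30. An ACC oxidase (CL1Contig2645), the last enzyme of ethylene synthesis, had 546, 737 and 627 reads per 100000 in AZ150 and 107, 43.4 and 279 in AZ30, and no AZ150 library overlapped an AZ30 library. The ratio of the ages was 5.10 at 3 h, 17.0 at 6 h and 2.25 at 9 h (log2 ratio 2.41 ± 0.58 SE, edgeR adjusted p = 0.0015). The adjusted p was 0.082 without 3 h and 0.40 without 6 h, within a range of 1.6e-08 to 0.40. EgACO5 (CL1Contig8039), another ACC oxidase, had 23.0, 34.2 and 65.3 reads per 100000 in AZ150 and 0, 0 and 9.79 in AZ30 (log2 ratio 3.77 ± 0.62 SE, edgeR adjusted p = 2.4e-07, at most 0.071, without the time term). An S-adenosylmethionine synthase (CL1Contig23174), which makes the precursor of ACC, was lower, with 16.0, 7.08 and 9.44 reads per 100000 in AZ150 and 63.7, 40.9 and 29.4 in AZ30 (log2 ratio -2.08 ± 0.52 SE, edgeR adjusted p = 0.0027, and 0.083 without 3 h, 0.058 without 6 h and at most 0.087). It lay lower in AZ150 at all 3 times and is also used for methyl transfer in general.

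Of 5 contigs of ethylene perception, EgEIN4 (CL1Contig5018), a receptor, was called higher, with 46.1, 57.8 and 82.6 reads per 100000 in AZ150 and 9.23, 5.11 and 47.1 in AZ30 (log2 ratio 1.89 ± 0.52 SE, edgeR adjusted p = 0.0070). That call was lost without 3 h (0.15) or 6 h (0.30) and had its highest adjusted p, 0.44, without the time term. The transcription factor EgEIN3 (CL1Contig4369) had 17.7, 18.9 and 28.3 reads per 100000 in AZ150 and 46.1, 70.2 and 40.6 in AZ30, without passing the test (log2 ratio -1.29 ± 0.49 SE, edgeR adjusted p = 0.11). None of the 14 ethylene response factors was called in either direction (median log2 ratio 0.23). EgERF18 (CL1Contig10002), for example, had 3.55, 36.6 and 25.2 reads per 100000 in AZ150 and 7.38, 12.8 and 3.73 in AZ30, and its libraries overlapped.

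Auxin genes gave 1 higher and 1 lower call among 13. EgIAA27 (CL1Contig1153), of the Aux/IAA repressors of the auxin response, had 1.77, 2.36 and 0 reads per 100000 in AZ150 and 8.30, 39.6 and 4.66 in AZ30 (3 against 50 reads, a ratio of 0.0897 with a counting interval of 0.0179 to 0.278, edgeR adjusted p = 0.00052). It was lower at all times, and the adjusted p was 0.25 without the 6 h libraries, the highest of the alternatives (lowest 0.00046). EgPILS6 (CL1Contig25900), of the PIN-LIKES auxin carriers, had 53.2, 0 and 9.44 reads per 100000 in AZ150 and 3.69, 0 and 4.66 in AZ30, and its call (log2 ratio 2.24 ± 0.70 SE, edgeR adjusted p = 0.030, lowest 0.023) was lost without 3 h (0.91). Among 8 jasmonate contigs a JAZ repressor (CL1Contig8195) was lower, with 5.32, 8.26 and 7.08 reads per 100000 in AZ150 and 32.3, 8.94 and 49.9 in AZ30 (log2 ratio -2.03 ± 0.58 SE, edgeR adjusted p = 0.012, and 0.29 without 3 h, 0.48 without 9 h, lowest 0.0020). At 6 h its levels at both ages were close.

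**Figure D4:**
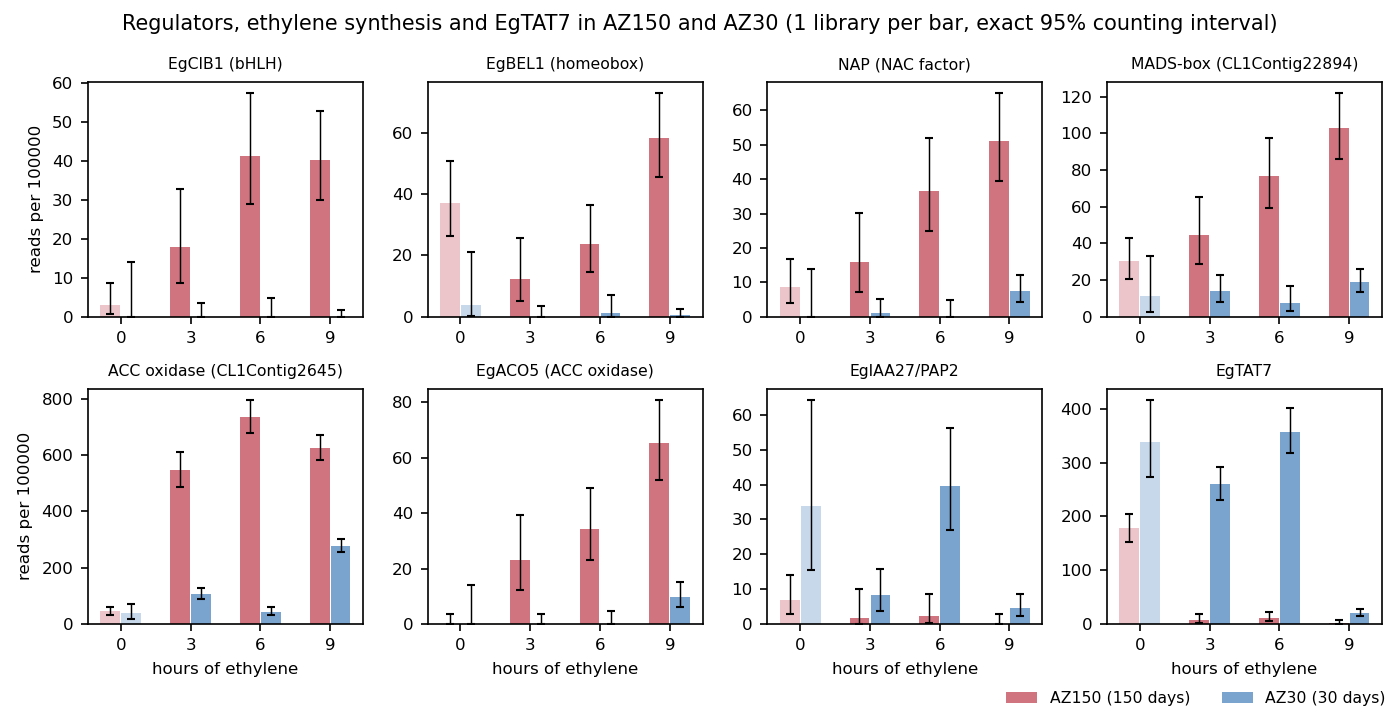
Reads per 100000 of transcription factors, ACC oxidases, EgIAA27 and EgTAT7 in AZ150 (red) and AZ30 (blue) at 0, 3, 6 and 9 h of ethylene, with 1 library a bar and exact 95% counting intervals; paler bars at 0 h are untreated tissue. EgCIB1 had no read in any AZ30 library, and EgIAA27 and EgTAT7 were lower in AZ150 at each treated time.

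Among transcription factors, 2 were nearly or wholly without reads in AZ30. EgCIB1 (CL1Contig9735), a basic helix-loop-helix factor named after the Arabidopsis protein that binds cryptochrome, had 17.7, 41.3 and 40.1 reads per 100000 in AZ150 and none in AZ30, in all 96 against 0 reads. It was at least 47.8-fold higher against a floor of 3 reads over the AZ30 libraries (edgeR adjusted p = 6.6e-13, at most 0.0027 over 12 alternatives). P150 was also nearly without it, at 0.999, 0.661 and 2.40 reads per 100000 (edgeR adjusted p = 0.00017 for AZ150 against P150). EgBEL1 (CL1Contig17462), a homeodomain factor, had 12.4, 23.6 and 58.2 reads per 100000 in AZ150 and 0, 1.28 and 0.466 in AZ30, or 101 against 2 reads, a ratio of 75.5 with a counting interval of 20.4 to 632 (edgeR adjusted p = 7.4e-10, at most 0.0042). It was present in P150 at 25.5, 12.2 and 31.3 reads per 100000. A NAC factor close to Arabidopsis NAP, a promoter of leaf senescence (CL1Contig4289), had 16.0, 36.6 and 51.1 reads per 100000 in AZ150 and 0.923, 0 and 7.46 in AZ30 (log2 ratio 3.53 ± 0.62 SE, edgeR adjusted p = 2.0e-06, at most 0.047). The NAC factor EgATAF1 (CL1Contig1253) was called at log2 1.51 ± 0.49 (SE, edgeR adjusted p = 0.039), a call lost without 3 h (0.14), 6 h (0.35) or 9 h (0.16), and with the time term dropped (0.25; 0.015 to 0.44 over the alternatives). In this group of NAC, MYB, bHLH, bZIP and homeobox factors, 4 of 20 tested were higher and none was lower.

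MADS-box factors specify floral and fruit tissues, and 2 of 6 were higher in AZ150. CL1Contig22894, close to Arabidopsis SEPALLATA3, had 44.3, 76.7 and 103 reads per 100000 in AZ150 and 13.8, 7.66 and 19.1 in AZ30 (log2 ratio 2.36 ± 0.51 SE, edgeR adjusted p = 0.00027, at most 0.070, without the time term). CL1Contig7116 had 10.6, 14.2 and 15.7 reads per 100000 in AZ150 and 0.923, 1.28 and 1.40 in AZ30 (log2 ratio 3.32 ± 0.77 SE, edgeR adjusted p = 0.00093, at most 0.090, without 9 h). Both contigs, and CL1Contig6473, which the annotation calls a calmodulin-binding protein, map to the same locus and cannot be counted as separate genes. None of the 3 AZ30 libraries was without the first contig, whereas no P150 library had a read of either, 0 h included.

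Thaumatin-like proteins, small secreted proteins of plant defence, were higher in 4 of 9 contigs tested and lower in none. EgOSM34 (CL1Contig1963), an osmotin, had 17.7, 18.9 and 184 reads per 100000 in AZ150 and 0, 0 and 0.466 in AZ30. With 260 reads against 1, the ratio was 389 and its counting interval 69.1 to 15409 (edgeR adjusted p = 5.0e-14, at most 0.0023 over 12 alternatives). Another thaumatin-like contig (CL1Contig8813) had 19.5, 16.5 and 417 reads per 100000 in AZ150 and 0, 0 and 38.2 in AZ30 (log2 ratio 3.99 ± 0.67 SE, edgeR adjusted p = 4.7e-07, at most 0.26, without the time term). In both, the level of AZ150 was several times higher at 9 h than at 3 and 6 h. The other 2 calls, CL1Contig15264 and CL1Contig6331 (edgeR adjusted p of 0.0069 and 0.023), share a locus and were lost without 3 h (adjusted p of 0.12 and 0.22) or 6 h (0.24 and 0.62), with highest values of 0.57 and 0.62 over the alternatives.

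Among chitinases and other pathogenesis-related proteins, none of 11 was higher in AZ150 and 1 was lower. Their summed level was 1073, 1078 and 2721 reads per 100000 in AZ150, against 609, 301 and 4823 in AZ30, so AZ30 lay above AZ150 at 9 h only. An endochitinase (CL1Contig10109) had 273, 367 and 1235 reads per 100000 in AZ150 and 147, 46.0 and 1528 in AZ30 (log2 ratio 1.05 ± 0.60 SE, edgeR adjusted p = 0.45, and 0.0090 without 9 h, the lowest of the alternatives, to 0.99 without 6 h). The PR1a contig called lower (CL1Contig10913) had 0, 1.18 and 103 reads per 100000 in AZ150 and 6.46, 5.11 and 402 in AZ30, with libraries that overlapped (log2 ratio -2.20 ± 0.68 SE, edgeR adjusted p = 0.026), and was not called without 3 h (0.25), 6 h (0.16) or 9 h (0.53) or without the time term (0.65; lowest 0.0063).

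Amino acid metabolism gave the most calls of any group, 12 higher and 1 lower among 20 tested (median log2 ratio 2.07), of which 7 held with each time left out in turn. The 13 called contigs cover 10 named loci, so the calls count contigs rather than genes. EgHMT2 (CL1Contig4187), a homocysteine methyltransferase that regenerates methionine, had 51.4, 68.4 and 159 reads per 100000 in AZ150 and 3.69, 1.28 and 2.33 in AZ30, in all 289 against 10 reads (log2 ratio 5.12 ± 0.64 SE, edgeR adjusted p = 1.1e-12, at most 0.0018). A second contig of this locus (CL1Contig1760) had 52 against 1 reads, a ratio of 77.7 with a counting interval of 13.3 to 3128 (edgeR adjusted p = 4.1e-07, at most 0.025). An asparagine synthase (CL1Contig1062), which makes the nitrogen transport compound asparagine, had 5.32, 87.3 and 35.4 reads per 100000 in AZ150 and 0, 3.83 and 1.87 in AZ30 (log2 ratio 4.32 ± 0.69 SE, edgeR adjusted p = 6.6e-08, at most 0.020). P150 had 4.50, 187 and 137 reads per 100000.

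The lower call of that group had the smallest adjusted p of the annotated lower contigs. EgTAT7 (CL1Contig16170) had 7.09, 11.8 and 2.36 reads per 100000 in AZ150 and 260.2, 358 and 20.5 in AZ30, so that 17 reads stood against 606. The exact 95% intervals were 1.93 to 18.2 in AZ150 and 231 to 292 in AZ30 at 3 h. Its log2 ratio was -4.66 ± 0.63 (SE, edgeR adjusted p = 8.9e-11, at most 0.012). Before treatment the contig had 177 reads per 100000 in AZ150 and 339 in AZ30. The study's name makes it a tyrosine aminotransferase, while the protein match in its annotation is an abscisic stress-ripening protein, and the identity cannot be settled here.

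Sugar metabolism showed 6 higher and no lower call among 13 tested for starch and sucrose, and 6 higher and no lower among 17 for glycolysis and fermentation. A sucrose synthase close to Arabidopsis SUS6 (CL1Contig5093) had 39.0, 77.8 and 48.0 reads per 100000 in AZ150 and 0, 1.28 and 8.86 in AZ30 (log2 ratio 3.89 ± 0.59 SE, edgeR adjusted p = 1.5e-08, at most 0.028). Another, close to SUS1 (CL1Contig6960), had 14.2, 37.7 and 42.5 reads per 100000 in AZ150 and 2.77, 2.55 and 6.06 in AZ30 (log2 ratio 2.88 ± 0.59 SE, edgeR adjusted p = 9.6e-05, at most 0.033). These sucrose-cleaving enzymes did not overlap between the ages. The invertase EgCINV1 (CL1Contig20679, log2 ratio 2.53 ± 0.62 SE) and the alpha-amylase EgAMY1 (CL1Contig7998, 2.37 ± 0.69), which breaks down starch, were called at edgeR adjusted p of 0.0021 and 0.015, lost without 9 h (0.12 and 0.16; up to 0.12 and 0.44 over the alternatives) and, for EgAMY1, also without 3 h (0.23) or 6 h (0.058). Of these 6 calls, 2 held with each time left out.

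EgADH1 (CL1Contig8265), the alcohol dehydrogenase of ethanolic fermentation, had 67.4, 112 and 389 reads per 100000 in AZ150 and 12.9, 8.94 and 93.3 in AZ30 (log2 ratio 2.53 ± 0.53 SE, edgeR adjusted p = 0.00015, and 0.068 without 6 h, at most 0.30). It was abundant in AZ150 before treatment, at 209.5 reads per 100000, and P150 had 11.5, 11.6 and 26.4 (edgeR adjusted p = 0.0012 for AZ150 against P150). EgPDC4 (CL1Contig10266), the pyruvate decarboxylase before it in the pathway, was sparser, at 8.86, 9.44 and 25.2 reads per 100000 in AZ150 and 0.923, 2.55 and 2.33 in AZ30 (log2 ratio 2.87 ± 0.73 SE, edgeR adjusted p = 0.0029, and 0.39 without 9 h, the highest). All 17 members of the glycolysis group had a fitted ratio above 0, against 3663 of the 7836 contigs tested. Of the 17, 13 are among the contigs that the study had selected against AZ30 and P150 in these libraries. None of the 6 calls in this group held with each time left out in turn.

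Further enzymes stood among the 12 annotated contigs with the smallest adjusted p. EgGA1 (CL1Contig22190), the ent-copalyl diphosphate synthase that starts gibberellin synthesis, had 21.3, 38.9 and 29.1 reads per 100000 in AZ150 and 0, 0 and 1.40 in AZ30 (82 against 3 reads, a ratio of 40.9 with a counting interval of 13.5 to 202, edgeR adjusted p = 1.4e-09, at most 0.0023). P150 had reads of it at 6 h only, 2.98 per 100000. EgCYP71A26 (CL1Contig25019), a cytochrome P450, had 53.2, 34.2 and 158 reads per 100000 in AZ150 and 1.85, 3.83 and 5.60 in AZ30 (log2 ratio 4.32 ± 0.61 SE, edgeR adjusted p = 7.4e-10, at most 0.0071), and P150 was level with AZ150 at 64.4, 31.4 and 106. A cellulose synthase-like contig (CL1Contig12538) had 33.7, 90.8 and 7.86 reads per 100000 in AZ150 and 0, 5.11 and 0 in AZ30 (log2 ratio 4.89 ± 0.72 SE, edgeR adjusted p = 3.8e-09, at most 0.023). EgPAR1 (CL1Contig8541) had 78.0, 4.72 and 75.5 reads per 100000 in AZ150 and 0, 0 and 2.33 in AZ30 (log2 ratio 5.64 ± 0.75 SE, edgeR adjusted p = 3.0e-11, at most 0.010). CL1Contig13307, with a locus but no description, had 44.3, 92.0 and 101 reads per 100000 in AZ150 and 0.923, 2.55 and 1.87 in AZ30 (log2 ratio 5.40 ± 0.65 SE, edgeR adjusted p = 2.1e-13, at most 0.0014). Its ratio was nearly level over time, at 48.0, 36.0 and 54.4.

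Transport and signalling genes went both ways. EgAHA10 (CL1Contig6430), a proton pump of the kind that acidifies compartments, had 3.55, 16.5 and 33.0 reads per 100000 in AZ150 and 0, 0 and 3.73 in AZ30 (log2 ratio 3.60 ± 0.75 SE, edgeR adjusted p = 0.00013, at most 0.074, without the time term). EgSULTR3;5 (CL1Contig9617), a sulphate transporter, had 78.0, 17.7 and 55.1 reads per 100000 in AZ150 and 6.46, 0 and 29.4 in AZ30 (log2 ratio 2.35 ± 0.56 SE, edgeR adjusted p = 0.0013, and 0.20 without 3 h, at most 0.39). The tonoplast aquaporin EgGAMMA-TIP (CL1Contig18346) was lower, with 3.55, 8.26 and 0 reads per 100000 in AZ150 and 6.46, 60.0 and 2.80 in AZ30 (log2 ratio -2.54 ± 0.72 SE, edgeR adjusted p = 0.012, and 0.76 without 6 h, 0.090 without 9 h, lowest 0.011). The call of a DELTA-TIP aquaporin (CL1Contig4779, log2 ratio -2.40 ± 0.74 SE, edgeR adjusted p = 0.028) was lost without 3 h (0.31), 6 h (0.097) or 9 h (0.14), within a range of 0.0092 to 0.44.

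Receptor kinases and calcium signalling held 3 higher and 2 lower calls among 10. A leucine-rich repeat protein (CL1Contig26253) had 138, 35.4 and 123 reads per 100000 in AZ150 and 6.46, 8.94 and 44.3 in AZ30 (log2 ratio 2.42 ± 0.53 SE, edgeR adjusted p = 0.00031, and 0.21 without 3 h or without the time term, lowest 0.00024), and a protein kinase (CL1Contig11148) 19.5, 17.7 and 47.2 in AZ150 and 2.77, 0 and 11.2 in AZ30 (log2 ratio 2.63 ± 0.59 SE, edgeR adjusted p = 0.00053, at most 0.17). EgHSL1 (CL1Contig16961), a receptor kinase that the study's tables match to Arabidopsis HSL1/CEPR2 and, in another table, to HAESA, the receptor that drives floral organ shedding in that species, was lower, with 1.77, 3.54 and 3.15 reads per 100000 in AZ150 and 15.7, 21.7 and 11.2 in AZ30. The ages did not overlap at any time (log2 ratio -2.42 ± 0.66 SE, edgeR adjusted p = 0.0079), but with 8 reads in AZ150 the call was lost without 3 h (0.12), without 6 h (0.13) or without the time term (0.069), within a range of 0.0074 to 0.22. EgACA13 (CL1Contig18543), a calcium pump, had 8.86, 1.18 and 3.93 reads per 100000 in AZ150 and 68.3, 24.3 and 6.99 in AZ30 (log2 ratio -2.56 ± 0.61 SE, edgeR adjusted p = 0.0014, and 0.17 without 3 h, 0.071 without 6 h, at most 0.17).

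Redox enzymes gave 2 higher calls and 1 lower call of 14, heat shock proteins 1 higher of 18 and ribosomal proteins 1 higher of 13. Over all annotated contigs tested, 17.0% were higher and 1.71% were lower. Of 6 senescence and autophagy genes, 2 were higher. EgERD1 (CL1Contig7865), a Clp protease subunit linked to senescence, had 78.0, 41.3 and 114 reads per 100000 in AZ150 and 11.1, 0 and 29.4 in AZ30 (log2 ratio 2.78 ± 0.53 SE, edgeR adjusted p = 2.0e-05, at most 0.20, without the time term). EgCBSX1 (CL1Contig6450), a regulator of thioredoxins, had 28.4, 22.4 and 42.5 reads per 100000 in AZ150 and 0.923, 1.28 and 7.46 in AZ30 (log2 ratio 3.21 ± 0.60 SE, edgeR adjusted p = 1.2e-05, at most 0.044). Manganese and copper/zinc superoxide dismutases, which remove superoxide, differed in opposite directions, at log2 2.64 ± 0.59 (CL1Contig6826) and -2.01 ± 0.62 (CL1Contig1086, edgeR adjusted p = 0.029, and 0.35 without 6 h, 0.43 without 9 h, lowest 0.025). The linker histone EgHIS1-3 (CL1Contig4234) was lower at log2 -3.04 ± 0.74 (SE, edgeR adjusted p = 0.0019, and 0.65 without 6 h, lowest 0.0017), and the ribosomal group had the lowest median, -0.48.

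Most of what was lower in AZ150 carries no name: 16 of the 219 lower contigs were annotated, against 159 of the 212 higher ones, since the annotation covers contigs selected in AZ150. A contig without a read in AZ150 could pass the filter only through its reads in all 3 AZ30 libraries. Of the lower contigs, 35 had no read in any of the 3 treated AZ150 libraries and 18 to 440 reads in AZ30, and were at least 4.01- to 98.1-fold lower. Reads of 24 of these were found in P150, of 15 in AZ150 at 0 h and of 26 in AZ30 at 0 h. CL1Contig10106, without a name, had 0 reads in AZ150 and 61.8, 57.5 and 153 reads per 100000 in AZ30, 440 reads in all, and was at least 98.1-fold lower (edgeR adjusted p = 1.8e-17, at most 0.0014). CL1Contig605 had 0, 4.72 and 0.786 reads per 100000 in AZ150 and 74.7, 84.3 and 138 in AZ30, 59.1-fold lower over the summed reads (edgeR adjusted p = 5.0e-14, at most 0.0018). P150 had 3.00, 0 and 0 reads per 100000 of CL1Contig10106 and 0, 0.331 and 0 of CL1Contig605. Among annotated contigs, a dehydration-responsive protein (CL1Contig2039) had 3.55, 1.18 and 3.15 reads per 100000 in AZ150 and 19.4, 21.7 and 27.0 in AZ30 (log2 ratio -3.18 ± 0.66 SE, edgeR adjusted p = 0.00011, at most 0.086), and an RNA-binding protein (CL1Contig16020) had no read in AZ150 and 27 in AZ30, at least 6.02-fold lower (edgeR adjusted p = 0.0051, and 0.081 without 6 h, 0.44 without 9 h, lowest 0.0049).

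On the higher side, 7 contigs had no read in AZ30 and 15 to 96 reads in AZ150, and were at least 7.47- to 47.8-fold higher. Such contigs could pass the filter only through all 3 AZ150 libraries. The AZ30 libraries were deeper at 3 and 9 h, so these 7 cannot be set against the 35 without a read in AZ150. All 7 had reads in P150 and in AZ150 at 0 h, and none had a read in AZ30 at 0 h. CL1Contig24242, without a name, had 16.0, 25.9 and 14.9 reads per 100000 in AZ150 and none in AZ30, at least 24.9-fold (edgeR adjusted p = 8.0e-09, at most 0.0018). CL1Contig5205, also without a name, had 26.6, 37.7 and 26.0 reads per 100000 in AZ150 and 0, 1.28 and 4.20 in AZ30 (log2 ratio 3.71 ± 0.63 SE, edgeR adjusted p = 8.2e-07, at most 0.017).

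The ages were also compared at each time by the test of Audic and Claverie for a pair of libraries, called at an unadjusted p under 0.01. At 3 h 883 contigs differed, 3.26% of those with a read, with 588 higher in AZ150 (2.17%) and 295 lower (1.09%). The 6 h libraries gave 1155 contigs (4.83%), of which 551 were higher (2.30%) and 604 lower (2.53%), a split that turned round to 397 higher and 353 lower after thinning to equal depth. The 9 h libraries gave 1203 (3.84%), of which 681 were higher (2.17%) and 522 lower (1.67%). This test compares libraries rather than ages, and the counts at the 3 times cannot be ranked, since depth differs. At 3 h the split depended on scaling, with 435 higher and 368 lower after TMM scaling. The split also depended on the tail rule, which put the observed count in the lower tail only and so raised the higher calls. With that count in both tails, 426, 478 and 565 contigs were higher at 3, 6 and 9 h, and the lower counts did not change. In the same direction at all 3 times, 192 contigs were called (0.460% of 41782), 139 higher (0.333%) and 53 lower (0.127%), of which 162 were also called in the fit over all times. With the observed count in both tails, the calls at all 3 times numbered 167, of which 114 were higher and 53 lower. With 1 time left out there were 291 to 341, the highest without 3 h.

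Over the contigs higher in AZ150, the median log2 ratio (0.5 read added) was 2.82 at 3 h, 3.34 at 6 h and 2.27 at 9 h, and the gap was narrower at 9 h than at 3 h in 136 of 212 (64.2%), against 59.5% of all contigs tested. AZ30 had its highest level of the 3 times at 9 h in 151 of the 212 (71.2%, against 32.0% of all contigs tested), and AZ150 in 109 (51.4%, against 30.8%). These counts describe contigs called from the same libraries, and the AZ30 library at 9 h is the deepest of the 6. In 23 of the 212, AZ30 at 9 h lay above AZ150 at 3 h, EgPG4 among them. For the lower contigs the medians were -2.52, -3.28 and -2.52.

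Single genes differed in this course, by a rule that chose them for it. The gap was wider at 9 h for EgOSM34 (log2 5.33, 4.93 and 8.04 at 3, 6 and 9 h with 0.5 read added), for the second EgHMT2 contig (CL1Contig1760: 2.82, 4.93 and 6.73) and for CL1Contig12732 (0.58, 5.56 and 4.09). The gap was wider at 3 h for EgLAC7 (6.61, 6.85 and 2.40), for a monooxygenase (CL1Contig11241: 5.90, 2.69 and 1.22), for a calcium-dependent kinase (CL1Contig25905: 6.43, 3.59 and 1.98) and for an aldehyde dehydrogenase (CL1Contig4545: 5.47, 4.71 and 1.26). In EgLAC7, AZ30 had no read until 9 h and AZ150 was at its highest then. The calls of these contigs were lost without 9 h for CL1Contig12732 (edgeR adjusted p = 0.12), without 3 h for CL1Contig11241 (0.16) and CL1Contig25905 (0.60) and without 6 h for CL1Contig4545 (0.050).

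Before treatment, the ages already differed in the same direction for most called contigs. At 0 h, 186 of 194 higher contigs with a read at that time (95.9%) and 156 of 206 lower ones (75.7%) lay on the same side in untreated tissue, where 72.7% of all contigs with a ratio above 0 and 46.0% of those below 0 did. The AZ30 library at 0 h is the shallowest, with 26560 reads, where 1 read stands for 3.77 reads per 100000 and a count of 0 allows up to 11.3. EgBEL1 had 37.0 reads per 100000 in untreated AZ150 and 3.77 in untreated AZ30, whereas EgPGAZ1, EgPMEI and EgACO5 had none at either age.

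Whether the age difference after ethylene departs from that at 0 h was tested in a fit of the 8 AZ libraries. Of 8825 contigs, 0 were called by edgeR (395 at an unadjusted p under 0.05) and 0 by DESeq2 (138), and leaving out 9 h gave 1 call. The fit has 1 untreated library at each age, and 0 calls do not show that the ages responded alike. The smallest p among annotated contigs was that of the dehydration-responsive protein (CL1Contig2039, edgeR interaction, adjusted p = 0.83), which had 23.4 reads per 100000 in AZ150 and 3.77 in AZ30 before treatment, the opposite order to that under ethylene. A peptide transporter (CL1Contig2077, edgeR interaction, adjusted p = 0.83) had 41.9 reads per 100000 in AZ150 and 0 in AZ30 at 0 h, and then 0, 4.72 and 3.93 in AZ150 and 12.0, 25.5 and 4.20 in AZ30.

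By the labels, and in the study's results and sequencing overview, the pedicel was taken at the age of AZ150. A single sentence of its methods names the age of AZ30, and the labels were followed. In a fit of the 9 treated libraries, AZ150 differed from P150 in 37 of 7836 contigs (0.472%, 36 higher in AZ150) and P150 from AZ30 in 319 (4.07%). These comparisons share libraries with that of AZ150 and AZ30. The 7836 contigs were those that passed the filter on reads in the treated AZ150 and AZ30 libraries. Contigs with reads almost only in P150 could not enter. The share called and the direction of the calls against P150 are therefore partly set by that filter. The 212 contigs higher in AZ150 took up 5287, 8765 and 10087 reads per 100000 in P150. EgPG4 had no read in P150, and EgPGAZ1 0, 0.331 and 4.81 reads per 100000. Adjusted p for AZ150 against P150 was 8.5e-07 for EgPG4, 2.7e-06 for EgPGAZ1, 9.8e-06 for EgPMEI and 0.00034 for EgLAC7 (edgeR), while it was 0.98 for the beta-galactosidase, 0.97 for EgBEL1 and 0.98 for the NAP-like factor.

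Tissue at the fruit base can carry mesocarp, and the lists of mesocarp genes were read for this. Of 10 oil synthesis contigs tested, 2 were higher in AZ150 and none was lower, and their summed level was 452, 271 and 266 reads per 100000 in AZ150 and 409, 304 and 155 in AZ30. A stearoyl-ACP desaturase (CL1Contig7507) had 135, 82.6 and 45.6 reads per 100000 in AZ150 and 12.0, 38.3 and 12.6 in AZ30 (log2 ratio 2.02 ± 0.50 SE, edgeR adjusted p = 0.0021, and 0.29 without 3 h, the highest). Carotenoid genes, which colour the ripe mesocarp, summed to 112, 116 and 177 reads per 100000 in AZ150 and 17.5, 10.2 and 55.5 in AZ30, and 2 of 5 were called, among them the phytoene desaturase EgPDS3 (CL1Contig16017) with 55.0, 74.3 and 101 in AZ150 and 11.1, 3.83 and 16.8 in AZ30 (log2 ratio 2.81 ± 0.52 SE, edgeR adjusted p = 9.6e-06, at most 0.045). EgPDS3 had 1.50, 8.60 and 4.81 reads per 100000 in P150. The study also reports EgPG4 and EgPMEI expression in the mesocarp, and a rise of thaumatin transcripts there. It describes EgPGAZ1 and EgPGAZ2 as specific to the AZ. The part of mesocarp in the differences between the ages was not tested.

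The values of the untreated field libraries were taken as RPKM, reads scaled by transcript length and library depth. That unit rests on the methods of the study, since the column title speaks of read counts although the values are not whole. There was 1 library an age and no test. Transcripts were matched only for annotated contigs, which the study had selected for a response in AZ150. The shares over all transcripts given below therefore come from an unselected set and are not a like background. Of the 136 higher contigs with a transcript in these tables, 126 (92.6%) had more RPKM at 160 than at 30 DAP, 121 of them at least 2-fold, against 13.7% of all transcripts. At 120 DAP, 133 of 136 (97.8%) already lay above 30 DAP, 125 at least 2-fold, against 15.3% of all transcripts. Several contigs share a transcript, and over the 127 distinct transcripts 117 (92.1%) were higher at 160 DAP and 124 (97.6%) at 120 DAP. Of the 15 lower contigs with a transcript, 12 (80.0%) were lower at 160 than at 30 DAP, but 53.3% once the libraries were rescaled, and 43.6% of all transcripts were at least 2-fold lower at 160 DAP. Ordered by age (30, 120 and 160 DAP), EgTAT7 had 2352, 660.2 and 36.0 RPKM, EgCIB1 3.53, 105 and 121, and EgPMEI 3.47, 110.0 and 1259. The PR1a contig, lower in AZ150 under ethylene, ran the other way in the field, with 2.85, 41.1 and 5655 RPKM.

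**Figure D5:**
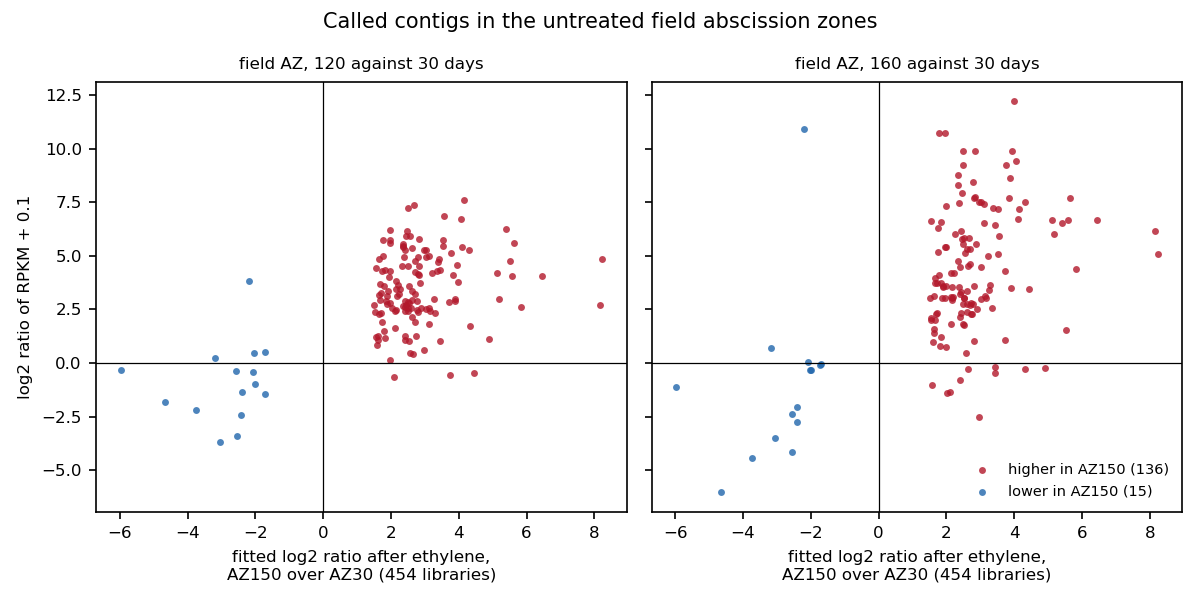
Called contigs in the field. The horizontal axis is the fitted log2 ratio of AZ150 over AZ30 under ethylene, and the vertical axis the log2 ratio of RPKM (0.1 added) at 120 over 30 DAP (left) and 160 over 30 DAP (right), for 136 contigs higher (red) and 15 lower (blue) in AZ150. Of the red points, 133 lie above 0 at 120 DAP and 126 at 160 DAP.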

How the data were processed

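The deposited 454 tables hold raw read counts per contig, which the authors made by assembling the reads of the 12 libraries together; no source used here names the assembler. The 3 field tables were read as RPKM values, which by the study's methods the authors computed after trimming (cutadapt) and alignment (BWA) to transcripts predicted on the EG5 genome; the deposited column title says read counts, but the values have decimals. A further 17 columns of the tables were not used. Ages were compared with edgeR 4.0.16 (R 4.3.3; quasi-likelihood test on time and age, TMM scaling, at least 3 reads in at least 3 of the 6 libraries, Benjamini-Hochberg adjustment at 0.05). The fit has 2 residual degrees of freedom and a biological coefficient of variation of 0.375. Each SE of a log2 ratio was derived from the test, as the absolute log2 ratio over the square root of the F statistic. It therefore adds nothing beyond the ratio and its p-value. Since no condition has a second library, p-values rest on the spread between times in how the ages differ. The fit pooled that spread over contigs (infinite prior degrees of freedom). A contig's own spread between times therefore had no weight of its own in its p-value.

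Times share their hour of sampling by the labels, and the deviations of same-time libraries from their age means correlated at 0.16, 0.19 and 0.25 (3, 6 and 9 h), so time stayed in the fit as the pairing term. Single times were compared by the test of Audic and Claverie (0.01), and the age difference at 0 h by an interaction term over 8 libraries. In the single-time test the observed count stood in the lower tail only, which favours higher calls. DESeq2 1.42.0, other scalings, filters and library sets, thinning to 56408 reads and leaving out each time were alternatives. Exact Clopper-Pearson intervals (95%) and floors of 3 reads cover counting error only. Figures were drawn with matplotlib 3.10.9. The statistics were also run on simulated data, with the same spread for all contigs, or with counting error alone for single times. Such data lack a spread of a contig's own, so they cannot show how the fit handles it.

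Names came from annotation columns of the study's supplementary tables for 1050 of 51804 contigs, 935 of them with a locus, and 39 named loci had several contigs, whose reads are split between them. No coordinates are given, since the annotation at hand is of another assembly. Described contigs were the 12 annotated ones with the smallest adjusted p in each direction, every pectin contig and up to 4 of each other group, 4 with the gap most widened and 4 most narrowed at 9 h, 3 with the smallest interaction p in each direction, and up to 2 unannotated ones in each direction. From these the text names those it turns on. The comparison, lists and rule were chosen with earlier results of these data known.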

Additional observations from a re-analysis of the deposited data

How the results depend on the processing

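The fit called 431 contigs, and other scalings and DESeq2 gave 297 to 433, while 125 were called without the time term (no replicate block), 257 without a filter on low counts, 283 with P150 in the fit, 282 after thinning, 127 after Bonferroni adjustment and 204 to 264 with 1 time left out (209 without 3 h, 204 without 6 h, 264 without 9 h). At single times, thinning gave 544 (3 h), 750 (6 h) and 454 (9 h), Benjamini-Hochberg adjustment 352, 638 and 720, and Bonferroni adjustment 106, 177 and 249. Calls at all 3 times numbered 101 after thinning, 317 at p under 0.05 and 291 to 341 with 1 time left out (318 without 9 h). The interaction gave 0 calls, and 0 to 1 with 1 time left out. At 0 h, 68.9% of the lower contigs were on the same side after TMM scaling. Of the contigs chosen by the rule, 82 were called, against 29 without the time term and 52 to 69 with 1 time left out. No called contig of the rule changed direction with library totals as scaling, without the time term or with 1 time left out. Medians of gene groups near 0 did change sign: without the time term, ethylene synthesis (0.30 to -0.04), jasmonate (0.10 to -0.18) and chitinases (0.18 to -0.38); without 6 h, jasmonate (-0.32), chitinases (-0.25), ethylene response factors (-0.07) and receptor kinases (-0.04); without 3 h, histones and actins (-0.19 to 0.03); and without 9 h, mesocarp oil (0.44 to -0.06). The 6 h split of 551 higher and 604 lower also turned, to 332 and 306 with Benjamini-Hochberg and 109 and 68 with Bonferroni adjustment. Thinning and leaving out a time leave fewer reads by construction, and otherwise the cause was not tested. One library a condition, the shallow AZ30 library at 0 h and the selected annotation limit all counts.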
